A study of Mus musculus with 5 samples.

Results

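The unfolded protein response and the integrated stress response were followed through 32 genes in sorted dendritic cells of the mouse thymus. The genes were chosen by symbol: 17 encode chaperones, folding enzymes and degradation factors of the endoplasmic reticulum (ER) that are targets of IRE1 and ATF6, 4 encode the stress sensors and the factor XBP1, and 11 are ATF4 or targets of the PERK and ATF4 arm. All 32 were found among the 18051 genes of the count table, and all 32 had enough counts to be tested. Cells came from C57BL/6J mice aged 6 to 8 weeks, either untreated (2 libraries) or harvested 4 days after total body irradiation, called TBI below (3 libraries). Both groups were sorted from digested, pooled thymi as CD45, MHC class II and CD11c positive, and no genetic alteration is named for either. The labels do not say that libraries of a group came from separate pools of mice, so p-values reflect only how these samples varied, which may be technical.

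When unfolded proteins build up in the ER, 3 membrane sensors respond. IRE1 splices the Xbp1 messenger RNA, and ATF6 is cut to release a transcription factor. Together these raise chaperones such as BiP, protein disulfide isomerases and the ER-associated degradation (ERAD) machinery that returns misfolded proteins to the cytosol. PERK phosphorylates the initiation factor eIF2, which slows protein synthesis and favours translation of ATF4, an activator of amino acid synthesis and import genes and of the factor CHOP. Other kinases, such as GCN2 in amino acid shortage, act on eIF2 as well, and the shared output is named the integrated stress response. Type 1 dendritic cells are known for constitutive IRE1 and XBP1 activity, and plasmacytoid dendritic cells and plasma cells for a large secretory apparatus.

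The promoters of the chaperone and ERAD genes are shown first, because the 5 of these genes that were lower after TBI all carried an ER stress response element, ERSE or its second form ERSE-II, the sequence bound by ATF6 and XBP1 with the factor NF-Y. The sequences are from RefSeq (GRCm38.p6, the build called mm10), 5′ to 3′ on the gene's strand, with the fixed bases of the element in capitals, either as written or as its reverse complement. In Herpud1 the first stretch in capitals, TTGCATCA, is a different element, the C/EBP-ATF response element described below. Windows run from 20 bases before to 20 bases after the elements of Herpud1, Creld2, Hsp90b1 and Dnajc3. For Hspa5 a shorter window is given, because GENCODE annotates a longer first exon there.
Herpud1, chr8:94386297-94386407, plus strand: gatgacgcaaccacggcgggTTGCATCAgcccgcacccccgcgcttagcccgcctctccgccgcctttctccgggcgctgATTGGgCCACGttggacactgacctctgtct
Creld2, chr15:88819500-88819558, plus strand: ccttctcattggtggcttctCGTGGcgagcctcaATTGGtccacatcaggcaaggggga
Hsp90b1, chr10:86705513-86705676, minus strand: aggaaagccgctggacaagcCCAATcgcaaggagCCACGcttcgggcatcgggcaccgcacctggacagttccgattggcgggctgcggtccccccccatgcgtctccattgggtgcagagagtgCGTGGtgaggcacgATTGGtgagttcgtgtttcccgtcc
Dnajc3, chr14:118937807-118937865, plus strand: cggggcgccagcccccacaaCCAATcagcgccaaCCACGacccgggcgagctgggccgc
Hspa5, chr2:34772020-34772048, plus strand: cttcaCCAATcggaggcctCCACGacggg

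Members whose difference did not pass carried the same element. It is shown alone for these 4 genes, as a comparison with the 5 above.
Pdia6, chr12:17266491-17266509, plus strand: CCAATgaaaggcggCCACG
Calr, chr8:84847075-84847093, minus strand: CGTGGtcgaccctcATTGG
Canx, chr11:50325800-50325818, minus strand: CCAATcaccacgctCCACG
Syvn1, chr19:6046532-6046550, plus strand: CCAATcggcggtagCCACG

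In the PERK and ATF4 arm the element searched was the C/EBP-ATF response element (CARE), the site of ATF4 with a C/EBP partner. Shown are Chac1, which matched it in full, and Asns, which matched a relaxed form before the start and was picked because it had the largest fall among the members. Trib3 matched the same relaxed form after its start and is not shown.
Chac1, chr2:119351029-119351076, plus strand: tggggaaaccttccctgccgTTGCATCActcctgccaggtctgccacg
Asns, chr6:7693214-7693243, minus strand: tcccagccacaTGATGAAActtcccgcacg

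The search covered 250 bases before and 50 bases after each RefSeq start on both strands, and 29 of the 32 members had a promoter in the RefSeq table. ERSE was searched as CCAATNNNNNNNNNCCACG, where N is any base, and its second form (ERSE-II) as ATTGGNCCACG. ERSE was in 8 of the 16 chaperone and ERAD promoters and in 0.119% of all 32851 promoters of this length. ERSE-II was in 1 of the 16, that of Herpud1, and in 0.0365% of all. This arm was chosen as targets of IRE1 and ATF6, so its share of these elements is not independent of that choice. Members were counted by gene, with a match in any window of the gene, while the shares over all promoters count windows. Neither form was found in the 3 sensor or 10 PERK/ATF4 promoters, which says only that these letters were not in those windows. CARE was searched as TTGCATCA, found in Herpud1 and Chac1 and in 0.895% of all promoters, and in a relaxed form, TGATGNAA, that includes the reverse complement of CARE. The relaxed form was in Asns, Chac1, Trib3 and Herpud1 and in 3.97% of all promoters. The core of the unfolded protein response element, TGACGTG, was in Hspa5 alone among the members and in 2.01% of all promoters. Such matches describe the sequence and do not show binding.

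**Figure D1:**
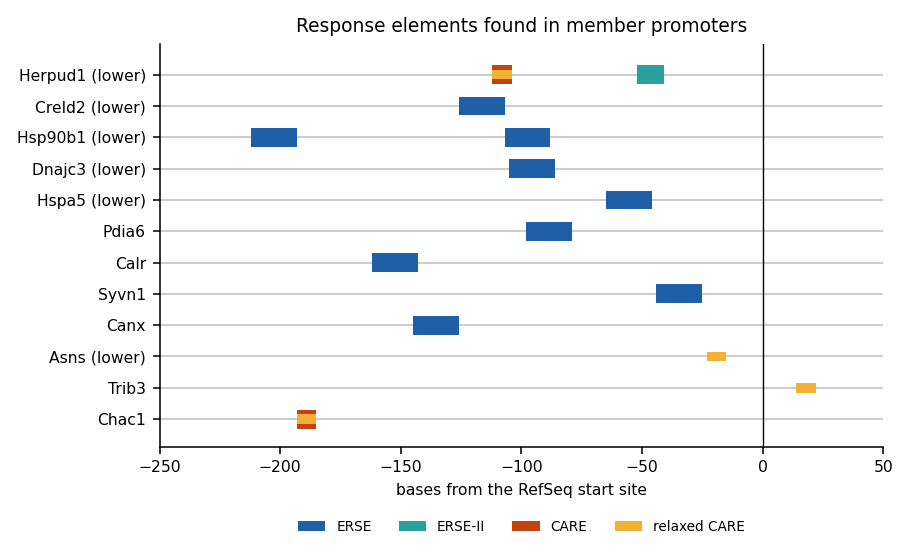
Positions of ERSE, ERSE-II, CARE and the relaxed CARE in the 12 member promoters that held one, in bases from the RefSeq start (vertical line); names carry the call in TBI against untreated libraries. The 5 lower chaperone and ERAD genes and 4 that did not pass hold ERSE or ERSE-II, and Hsp90b1 holds 2 copies of ERSE.

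Of all tested genes with a promoter in the table, 22 held ERSE or ERSE-II. The 9 members among them included 5 that were lower after TBI, and the 13 other genes included 0 by the edgeR test, whose nearest was Dnajb11, an ER co-chaperone of BiP (adjusted p = 0.0635). At an unadjusted p under 0.05 the 13 held 2 lower genes and 1 higher, DESeq2 called 1 lower and limma-voom 0. Among the 9276 tested genes that had a promoter, 9.78% were lower, and with 13 genes a count of 0 cannot be told from that share. The 13 other genes had a median log2 fold change of -0.04, against -0.38 for the 9 members and -0.01 for all 9276. The 7 chaperone and ERAD promoters without either form included 0 lower genes and had a median of -0.21. With 7 genes a count of 0 cannot be told from the 9.78% share either.

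The libraries held 7227000 to 8428589 counts, and levels are given as CPM, counts scaled to the library size after TMM scaling, in which 1 count equalled 0.124 to 0.145 CPM. TBI replicate 1 differed most from its group: the mean chi-square per gene (1 under counting error alone) was 24.4 and 29.2 against it and 10.1 between the other two TBI libraries. It was 5.11 between the untreated libraries and 123 to 138 between groups. Core dendritic cell markers were present in all 5 libraries, and 6 of 7 of them were lower after TBI. Marker lists of dendritic cell types and of other cells also differed between the groups. All 10 plasmacytoid markers were lower, with summed levels of 3490 and 3560 CPM against 448 to 573. Of 10 type 1 dendritic cell markers 9 were lower (summed 6830 and 7280 against 1810 to 2070 CPM). The other type 1 marker had a log2 fold change of 0.69 and did not pass. All 10 macrophage markers were higher (2860 and 3390 against 23200 to 24700 CPM). Of 9 tested plasma cell markers 3 were higher, Jchain, Sdc1 and Tnfrsf17, and 0 lower with edgeR, DESeq2 or limma-voom, while 1 was lower at an unadjusted p under 0.05. Their sums of 201 and 215 against 377 to 1620 CPM were mostly Jchain, the joining chain of secreted antibody, and without it, a sum added after the values were seen, they were 167 and 182 against 211 to 230 CPM. Irf4, Mzb1, Tnfrsf13b and Derl3 of this list had log2 fold changes below 0 (-0.54, -0.41, -0.58 and -0.16) that did not pass. Tnfrsf17, the plasma cell receptor BCMA, was at 0 counts in 1 untreated library. In such bulk libraries, fewer cells of a type and less RNA per cell cannot be told apart, and the part of these shifts in the results below was not tested.

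**Figure D2:**
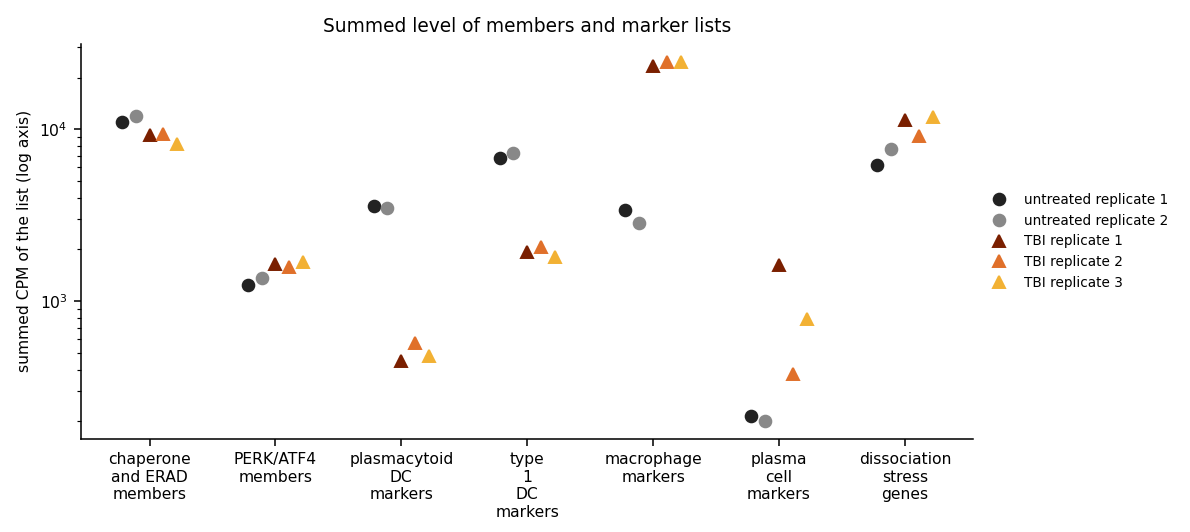
Summed CPM (log axis) of the chaperone and ERAD members, the PERK/ATF4 members and 5 marker lists in each of the 5 libraries (circles untreated, triangles TBI). Chaperone and ERAD members summed to 11100 and 11900 CPM in untreated and 8170 to 9420 CPM in TBI libraries, a far smaller step than that of the macrophage or plasmacytoid markers.

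Calls among the chaperone and ERAD genes were all lower, and the PERK/ATF4 genes had calls of both signs. Among the chaperone and ERAD genes 5 of 17 were lower after TBI, 0 were higher and 12 did not pass an edgeR adjusted p of 0.05. Of the 12046 genes tested, 9.79% were lower and 13.3% higher by this rule. The PERK/ATF4 arm had 3 of 11 higher (Atf4, Ppp1r15a and Phgdh), 2 lower (Asns and Slc7a5) and 6 that did not pass. None of the 4 sensor genes passed with edgeR, DESeq2 or limma-voom, while 2 of them had an unadjusted edgeR p under 0.05. In the chaperone and ERAD arm the higher genes numbered 0 at an unadjusted p under 0.05 as well, and 0 with DESeq2 and with limma-voom. Log2 fold changes (TBI minus untreated) had a median of -0.23 in the chaperone and ERAD arm, 0.30 in the PERK/ATF4 arm and -0.01 over all tested genes. TBI levels lay below both untreated libraries for 10 of 17 chaperone and ERAD genes, against 28.3% of all tested genes, and above both for 7 of 11 PERK/ATF4 genes, against 27.8%. The difference between the arms was not tested, because their members were chosen and share libraries.

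In each library the mean log2 CPM of the chaperone and ERAD genes exceeded that of the PERK/ATF4 genes. The gap was 2.92 and 2.77 in the untreated libraries and 2.67, 2.65 and 2.26 in TBI replicates 1 to 3. All 3 TBI libraries thus had a narrower gap than either untreated library, but 2.67 and 2.65 lay nearer to the untreated 2.77 than 2.92 did. The chaperone mean itself went from 8.59 and 8.67 to 8.36, 8.39 and 8.17, and the PERK/ATF4 mean from 5.67 and 5.91 to 5.69, 5.74 and 5.91. In the PERK/ATF4 mean the groups overlapped, and what each gene added to this was not tested.

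**Figure D3:**
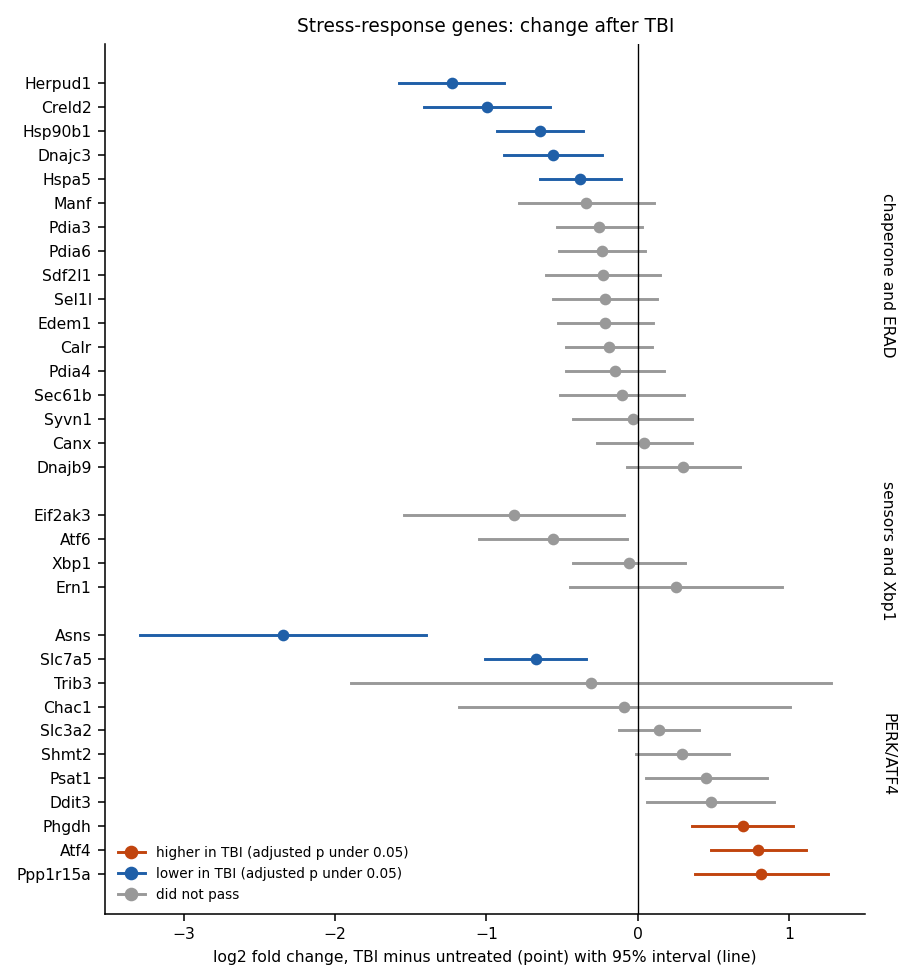
Log2 fold change of each of the 32 members (point) with its 95% interval (line), TBI minus untreated, grouped by arm and coloured by call at an adjusted p of 0.05. The 5 lower chaperone and ERAD genes run from -1.23 to -0.38, and the PERK/ATF4 genes spread from -2.34 (Asns) to 0.82 (Ppp1r15a).

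Among the chaperone and ERAD genes the largest fall was that of Herpud1, which encodes an ER membrane scaffold of the HRD1 ubiquitin ligase complex (chromosome 8, 94386438 to 94395377). Its levels were 797 and 847 CPM in untreated and 417, 321 and 314 CPM in TBI libraries. The groups lay far apart, with a log2 fold change of -1.23 ± 0.15 (SE; 95% interval -1.58 to -0.88; adjusted p = 6.43e-04), or 2.34-fold lower. This call held in each of the 14 alternative analyses, with adjusted p from 1.17e-11 to 0.00725. Creld2, a secreted ER stress protein with a disulfide isomerase-like activity, had 219 and 252 CPM against 139, 121 and 93.5 CPM. It was 1.99-fold lower (-0.996 ± 0.18 on the log2 scale, adjusted p = 0.00495), with no overlap.

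Hsp90b1 encodes GRP94, the HSP90 chaperone of the ER, which folds Toll-like receptors and integrins. It had 1343 and 1465 CPM in untreated and 840.4, 994 and 862 CPM in TBI libraries. All TBI values were below the untreated ones, at -0.64 ± 0.12 (adjusted p = 0.00630) or 1.56-fold lower. Up to 15.7% of its exon bases are shared with other annotated genes, with overlaps summed over genes. How reads there were assigned is not known, as the strand setting is not given. Dnajc3 encodes P58IPK, a BiP co-chaperone that also restrains PERK. Its levels were 290 and 322 CPM against 199, 234 and 190.0 CPM, again without overlap (-0.56 ± 0.14, adjusted p = 0.0229). Dnajc3 was not called with the replicate number as a block (adjusted p = 0.0543) or without untreated replicate 1 (0.109), untreated replicate 2 (0.244) or TBI replicate 3 (0.0613). Creld2 and Hsp90b1 each lost the call in 1 alternative, without untreated replicate 2 (0.0592 and 0.0851).

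Hspa5 encodes BiP, the main ER chaperone and the protein that holds the sensors inactive. It had 2497 and 2832 CPM in untreated and 2153, 2127 and 1873 CPM in TBI libraries. The TBI libraries were lower without overlap, but the gap was small, at -0.38 ± 0.12 or 1.30-fold, and the adjusted p of 0.0499 sat at the threshold. Hspa5 was not called with the filter on low counts removed (adjusted p = 0.0642), with the replicate number as a block (0.103) or without untreated replicate 1 (0.121), untreated replicate 2 (0.382), TBI replicate 2 (0.117) or TBI replicate 3 (0.0850).

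The number of lower chaperone and ERAD genes depended on single libraries. It was 3 without untreated replicate 1, 1 (Herpud1) without untreated replicate 2, 8 without TBI replicate 1, 4 without TBI replicate 2 and 3 without TBI replicate 3. Leaving out an untreated library also took the share of called genes over the whole table from 23.1% to 10.3% or 10.2%. Leaving out TBI replicate 1 took this share to 32.6%, and the lower genes over the whole table from 1179 to 1780. In that fit Pdia3 (-0.32, adjusted p = 0.0312), Sdf2l1 (-0.36, 0.0451) and Manf (-0.48, 0.0442) joined the lower members. With the replicate block the number was 3.

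The 12 chaperone and ERAD genes that did not pass ranged in log2 fold change from -0.34 (Manf) to 0.30 (Dnajb9). Manf encodes a secreted ER stress factor, and its TBI values of 156, 139 and 101 CPM overlapped the untreated 154 and 179 CPM. The disulfide isomerases Pdia3, Pdia6 and Pdia4 had -0.25 ± 0.12, -0.24 ± 0.12 and -0.15 ± 0.14. Pdia3, Pdia6, Calr, Edem1 and Sel1l lay below both untreated libraries in every TBI library, as did 28.3% of all tested genes. The lectin chaperones of glycoproteins, calreticulin (Calr, -0.19) and calnexin (Canx, 0.05), had 95% intervals of -0.48 to 0.10 and -0.27 to 0.36. Sdf2l1, a partner of ER co-chaperones, had -0.23.

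In the ERAD branch Edem1, a lectin-like factor that hands over glycoproteins, had -0.21, and Sel1l, the adaptor of HRD1, had -0.22. Syvn1, which encodes HRD1 itself, had -0.03 with an interval of -0.43 to 0.36. Sec61b, a subunit of the ER translocon, had -0.10. Dnajb9 encodes ERdj4, a BiP co-chaperone that represses IRE1. It was the member of this arm whose TBI values all lay above the untreated ones, at 57.3, 62.0 and 56.0 against 50.4 and 44.3 CPM, but it did not pass (0.30 ± 0.16, adjusted p = 0.226).

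**Figure D4:**
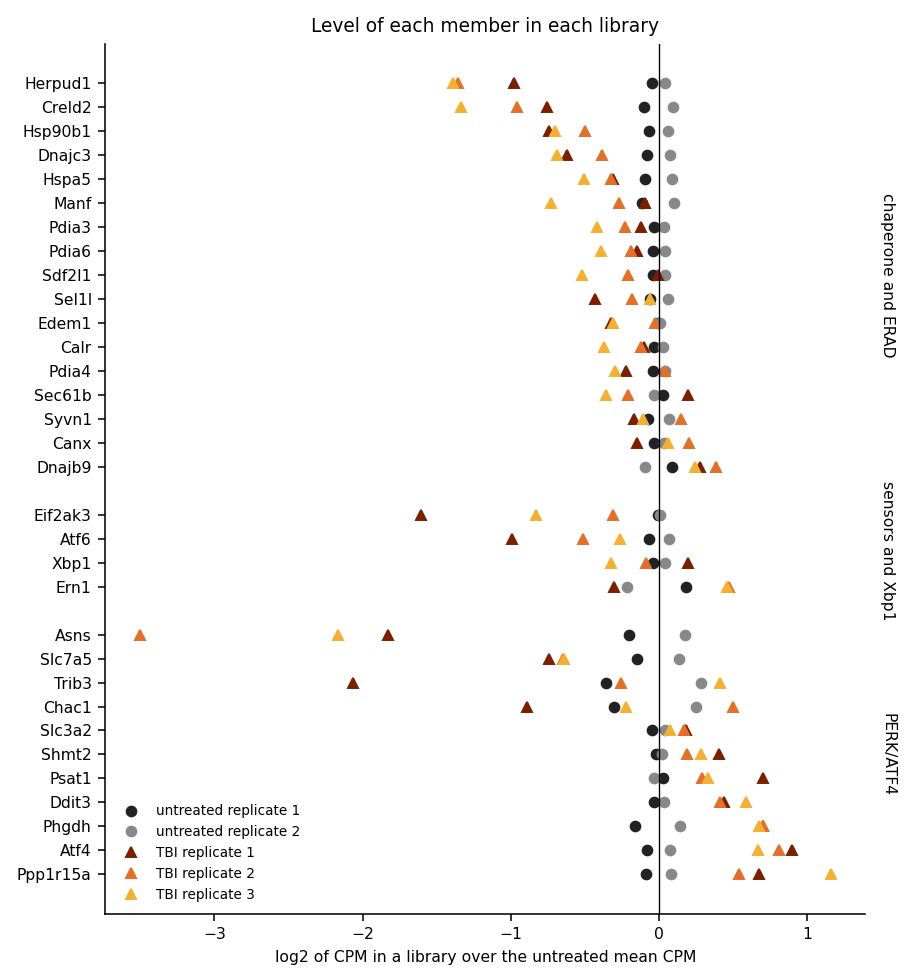
Level of each member in each library as log2 of its CPM over the untreated mean (circles untreated, triangles TBI). Groups separate for Herpud1, Creld2, Hsp90b1, Asns, Atf4 and Phgdh among others, and TBI replicate 1 lies far below the other TBI libraries for Eif2ak3 and Trib3.

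None of the sensor genes passed the threshold. Eif2ak3, which encodes PERK, had 86.4 and 87.2 CPM in untreated and 28.5, 70.1 and 48.8 CPM in TBI libraries. Every TBI library was lower, but they were widely spread (-0.82 ± 0.32, adjusted p = 0.0984). Atf6, the gene of the cleaved sensor, had 98.4 and 108 CPM against 51.8, 72.3 and 85.9 CPM (-0.56 ± 0.21, adjusted p = 0.0959). For both genes TBI replicate 1 was the lowest library. Without it 32.6% of all tested genes were called, against 23.1% with it, and both genes were called lower. Eif2ak3 then had -0.55 (adjusted p = 0.0353) and Atf6 -0.38 (0.0387). With the replicate block both were called lower as well, at -0.94 (adjusted p = 0.0486) and -0.75 (0.0244), and Eif2ak3 was called without TBI replicate 2 (-1.17, 0.0327).

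Xbp1, the transcription factor made from the IRE1-spliced messenger, had 491 and 518 CPM in untreated and 577, 474 and 404 CPM in TBI libraries. The groups overlapped, and the 95% interval of its log2 fold change, -0.43 to 0.31, leaves room for changes of either sign. Counts per gene do not separate spliced from unspliced Xbp1. Ern1, which encodes IRE1, was low, at 14.8 and 11.3 against 10.6, 18.1 and 17.9 CPM, and did not pass (0.25 ± 0.30).

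In the PERK and ATF4 arm, Atf4 itself rose. This gene on chromosome 15 (80255184 to 80257541) encodes the central transcription factor of the integrated stress response. It had 113 and 126 CPM in untreated and 223, 210 and 190.1 CPM in TBI libraries, with a clear gap between the groups. Its log2 fold change was 0.80 ± 0.14 (95% interval 0.49 to 1.11; adjusted p = 0.00419), or 1.74-fold higher. Since ATF4 is controlled largely at translation, the messenger level does not measure the protein.

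Ppp1r15a encodes GADD34, the stress-induced subunit of the phosphatase that reverses eIF2 phosphorylation. It had 190 and 214 CPM against 322, 294 and 450.2 CPM (0.82 ± 0.19, adjusted p = 0.0191). All TBI libraries were higher, and TBI replicate 3 stood above the others. Ppp1r15a also responds to tissue handling. Of 13 dissociation stress genes 7 were higher (53.8%, against 13.3% of all tested genes) and 0 lower in the same libraries. Their summed levels were 6210 and 7710 against 9130 to 11800 CPM. The 7 include Atf3, which is also on the list of further ATF4 and CHOP targets below. The part of handling in the Ppp1r15a result was not tested. Ddit3, which encodes CHOP, the death-promoting partner of ATF4, had 26.1 and 27.3 against 36.2, 35.6 and 40.1 CPM. The groups did not overlap but the difference missed the threshold (0.48 ± 0.18, adjusted p = 0.0978). It passed without TBI replicate 1 (0.50, adjusted p = 0.0442), where 32.6% of all tested genes were called against 23.1% with it. Ddit3 shares up to 10.9% of its exon bases with other annotations, including a second Ddit3 entry and Mars on the opposite strand. Overlaps were summed over annotations, so a base could count more than once.

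Of the serine and one-carbon genes of this arm Phgdh was called higher. Psat1 and Shmt2 had TBI values above both untreated libraries, as had 27.8% of all tested genes. Phgdh, the first enzyme of serine synthesis from glycolysis, had 68.3 and 84.3 CPM in untreated and 124, 124 and 122 CPM in TBI libraries. It was 1.62-fold higher, with TBI libraries in close accord (0.70 ± 0.15, adjusted p = 0.0113). Psat1, the aminotransferase of the next step, had 64.1 and 61.4 CPM against 102, 76.9 and 79.0 CPM. Its groups did not overlap, yet the test was not passed (0.46 ± 0.17, adjusted p = 0.102). Shmt2, which moves a one-carbon unit from serine to folate in mitochondria, had 105 and 108 against 141, 121 and 129 CPM and did not pass either (0.30 ± 0.14, adjusted p = 0.159).

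Asns and Slc7a5 moved the other way. Asns, the asparagine synthetase on chromosome 6 (7675169 to 7693254) and a classical ATF4 target, had 25.0 and 32.5 CPM in untreated and 8.10, 2.54 and 6.41 CPM in TBI libraries. In counts these were 202 and 257 against 56, 20 and 49. The groups lay far apart, with a log2 fold change of -2.34 ± 0.41 (95% interval -3.29 to -1.40; adjusted p = 0.00412), or 5.08-fold lower. It was called in all 14 alternative analyses, with adjusted p up to 0.0353. Slc7a5, the LAT1 transporter of large neutral amino acids, had 119 and 145 CPM against 79.0, 84.4 and 84.9 CPM (-0.67 ± 0.15, adjusted p = 0.0116), lower without overlap.

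The heavy chain that partners with LAT1, Slc3a2 (CD98), had 521 and 554 CPM against 610, 606 and 567 CPM. Its TBI values were slightly higher and its difference did not pass (0.14 ± 0.12), and scaling by library size alone turned it to -0.08. Trib3, a pseudokinase that feeds back on ATF4, and Chac1, a glutathione-degrading enzyme, are sensitive targets of the arm. Trib3 had 23 and 35 counts in untreated and 6, 24 and 37 in TBI libraries. Chac1 had 37 and 53 counts against 21, 63 and 37. Both overlapped between groups, with log2 fold changes of -0.31 ± 0.69 and -0.09 ± 0.48. Neither passed, and the 95% intervals were wide (-1.89 to 1.28 and -1.18 to 1.01).

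Calls in this arm also depended on the untreated libraries. The number of higher genes was 0 without untreated replicate 1 and 1 (Atf4) without untreated replicate 2, where 1 untreated library remained. Asns was the only lower gene of the arm in both cases. Without untreated replicate 1, Atf4 had 0.72 (adjusted p = 0.0895), Ppp1r15a 0.73 (0.151), Phgdh 0.55 (0.204) and Slc7a5 -0.81 (0.0511). Without untreated replicate 2, Ppp1r15a had 0.91 (0.0827), Phgdh 0.85 (0.0555) and Slc7a5 -0.53 (0.223). Ppp1r15a was also not called with scaling by library size alone (0.60, adjusted p = 0.0651).

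Per kilobase of exon, the chaperones were the most abundant members. Hspa5 led in both groups, with a mean of 630.0 RPKM (CPM per kilobase) in untreated and 485 in TBI libraries, followed by Pdia3 (530.0 and 445) and Calr (423 and 371). Herpud1 was 4th of 32 in untreated libraries with 352 RPKM and 9th in TBI libraries with 150.0 RPKM. The level of Creld2 went from 8th (172 RPKM) to 15th (86.4 RPKM). At the other end were Ern1, last in untreated libraries with 1.6 RPKM (1.90 in TBI), and Trib3, last in TBI libraries with 1.37 RPKM (1.71 in untreated). Asns, with 10.5 and 2.08 RPKM, lay below Chac1, with 3.45 and 3.23 RPKM, in TBI libraries only.

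Other genes of the pathway were read from lists chosen by function. Of 31 tested further ER folding factors 4 were lower and 0 higher with edgeR, with a median log2 fold change of -0.02. This was 12.9% lower, near the 9.79% of all tested genes. At an unadjusted p under 0.05 the numbers were 5 and 2, with DESeq2 5 and 1, and with limma-voom 4 and 0. Pdia5, a disulfide isomerase linked to ATF6 activation, went from 78.8 and 93.9 to 35.5, 20.4 and 19.1 CPM (-1.79 ± 0.28, adjusted p = 0.00203). Hyou1, the large ER chaperone that recharges BiP with nucleotide, went from 78.1 and 91.9 to 29.7, 48.2 and 29.6 CPM (-1.25 ± 0.24, adjusted p = 0.00685). Both separated the groups. Txndc5, a thioredoxin-domain isomerase, was lower as well (-0.55 ± 0.14, adjusted p = 0.0253).

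Of 23 further ERAD genes 3 (13.0%, again near 9.79%) were lower and 0 higher with edgeR (median -0.06), as with DESeq2 and limma-voom, and 5 and 3 at an unadjusted p under 0.05. Those called by edgeR were the mannose-trimming factors Edem2 (-0.67 ± 0.14), Man1b1 (-0.72 ± 0.16) and Edem3 (-1.07 ± 0.31). Among 20 translocon and signal peptidase genes Sec63, which brings BiP to the translocon, was the 1 that passed (-0.50 ± 0.15, adjusted p = 0.0415), where DESeq2 called 4 and limma-voom 3 lower. The median of this list was -0.19, and its edgeR share of 5% lower was below the 9.79% of all tested genes. Of 15 regulators of IRE1 and ATF6, Atf6b, the paralog of Atf6, was lower (-0.68 ± 0.14, adjusted p = 0.00943). Creb3l1, a related cleaved factor of secretory stromal cells, was higher from a low level (1.85 and 2.03 to 8.25, 5.20 and 6.67 CPM). Thus 6.67% were lower and 6.67% higher, below the 9.79% and 13.3% of all tested genes.

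Upstream of ATF4, 1 of 15 genes for eIF2 kinases, eIF2 and eIF2B was called, as lower (6.67%, against 9.79% of all tested genes). The median was -0.01. The lower gene was Eif2ak4, which encodes the amino acid sensor GCN2 and went from 21.7 and 25.3 to 7.38, 9.25 and 9.55 CPM (-1.43 ± 0.24, adjusted p = 0.00323). Downstream, 7 of 23 further ATF4 and CHOP targets were higher (30.4%, against 13.3% of all tested genes) and 6 lower (26.1% against 9.79%). Their log2 fold changes ran from -3.69 to 4.17, with a median of 0.06. The largest rises by p were Cebpb, the C/EBP partner of ATF4 and a myeloid factor (161 and 169 to 1423, 1287 and 1155 CPM, 2.97 ± 0.13), the stress protein Nupr1 (4.17 ± 0.25) and the cytokine Gdf15 (3.31 ± 0.24). These 3 rises exceeded that of Atf4 itself. In the same libraries all 10 macrophage markers were higher, and the part of macrophage RNA in these rises was not tested.

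Amino acid genes outside the members went both ways. Of 10 tested genes for serine, one-carbon and proline synthesis 2 were higher, Shmt1 (1.68 ± 0.24) and Mthfd1 (0.66 ± 0.18). The mitochondrial ATF4 target Mthfd2 was the 1 lower gene (-0.50 ± 0.15). These shares of 20% higher and 10% lower were near the 13.3% and 9.79% of all tested genes. Of 20 cytosolic aminoacyl-tRNA synthetases, which charge transfer RNA with amino acids, 3 (15%, against 9.79% of all tested genes) were lower and 1 (Wars) was higher, with a median of -0.03. Those lower were Iars (-0.80 ± 0.18), Cars (-0.73 ± 0.17) and Nars (-0.46 ± 0.12).

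**Figure D5:**
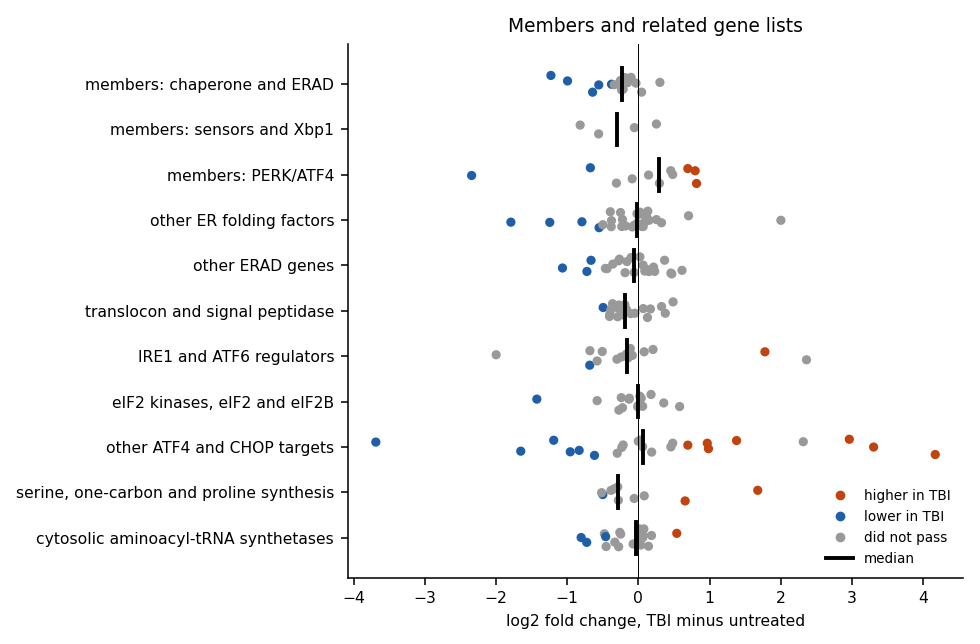
Log2 fold change (TBI minus untreated) of every tested gene in the 3 groups of members and 8 related lists, coloured by call, with the median of each as a black bar (vertical scatter is for display only). By edgeR, 29.4% of the chaperone and ERAD members are lower, against 12.9% of the further ER folding factors, 13.0% of the further ERAD genes and 9.79% of all tested genes, and ATF4 and CHOP targets have calls of both signs.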

How the data were processed

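RNA of sorted thymic dendritic cells was sequenced from SMART-Seq v4 libraries on an Illumina HiSeq, per the labels' protocols. The submitters' processing notes name STAR 2.5.2a for alignment to mm10, Subread featureCounts 1.6.0 for counting, and edgeR. Raw read counts per gene symbol were deposited by the authors. Annotation, strand setting, treatment of multiply mapped reads and radiation dose are not given in the sources used here. The kit adds no molecular identifiers. The SE, intervals and p-values use the spread between libraries, which may be technical, and not counting error alone. The treatment note disagrees with the sample titles on the day, and day 4 was taken from the titles.

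The test was that of edgeR 4.0.16 (R 4.3.3), with TMM scaling, filterByExpr (minimum count 10, total 15), the quasi-likelihood F-test with group as the only term, and Benjamini-Hochberg adjustment over 12046 genes at 0.05. CPM uses TMM-scaled library sizes, and RPKM divides it by GENCODE M21 exon length. Functions were tested on simulated data. Alternatives were other scalings and filters, DESeq2 1.42.0, limma-voom (limma 3.58.1), robust shrinkage, the replicate block and each library left out. Where 1 untreated library is left, its spread is taken from the TBI group.

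All 32 members and, per related list, up to 3 genes with the smallest adjusted p past 0.05 are named; Dnajb11 and Wars were named after their values were seen. Members, arms and lists were chosen with earlier results of these data known. The relaxed CARE was added after the first searches. Manf, Atf6 and Slc7a5 had no entry in the promoter table. Of 5 tested B cell markers all were higher. Pax5, also on that list, had too few counts to be tested (0 in both untreated libraries, 4, 2 and 1 in TBI libraries). Of 8 T cell markers 1 was higher and 4 lower.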

Additional observations from a re-analysis of the deposited data

How the results depend on the processing

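Of 448 member results under 14 alternatives each, 399 kept direction and side of the threshold, 20 were no longer called, 16 became called and 13 changed sign. DESeq2 size factors, upper quartile scaling, the stricter filter (1 CPM in 3 libraries, total 100), DESeq2, limma-voom and robust shrinkage moved none of the 32. Library size alone shifted the median of all tested genes by -0.23, to -0.23. It gave 2129 lower genes, with 36.8% of calls higher against 57.6%, 10 lower chaperone and ERAD members with a median of -0.46, 2 lower sensors and a PERK/ATF4 median of 0.069. Canx turned to -0.18 and Slc3a2 to -0.084. The replicate block gave 3 lower chaperone and ERAD members and 2 lower sensors and turned Xbp1 to 0.054. Same-numbered libraries share only a number: their deviations from the group means correlated at -0.016 and -0.010, and with 2 pairs no pairing can be drawn. With 1 library left out, genes ran from 810 to 2148 higher and 423 to 1780 lower, lower chaperone and ERAD members from 1 to 8, lower sensors from 0 to 2, higher PERK/ATF4 members from 0 to 4, lower ones from 1 to 2, and the PERK/ATF4 median from 0.24 to 0.35. Sign changes there gave -0.039 to 0.13 for Canx, -0.14 to 0.042 for Syvn1, -0.28 to 0.016 for Sec61b, -0.20 to 0.066 for Xbp1, -0.86 to 0.12 for Trib3 and -0.51 to 0.21 for Chac1. Apart from the construction of each alternative, the cause was not tested. With 2 untreated libraries, changes of about 1.2-fold, as for most chaperones, were within the intervals.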
